A study of Mus musculus with 4 samples.

Results

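The reelin pathway is described here through 7 genes, Reln, Vldlr, Lrp8, Dab1, Fyn, Crk and Crkl, of the 32285 genes counted in nuclei of the mouse hippocampus. Members were found by gene symbol in the 4 count matrices, and every symbol matched a single gene. The set was chosen by a measured value: an earlier clustering of these same libraries had shown a higher Dab1 level in trained than in untrained CA3 nuclei, and the other 6 genes were added as pathway partners. The difference of Dab1 with training is therefore given as values with an error and without a test in every cell class. Differences between cell classes played no part in that choice and were tested for all 7 genes.

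Single nuclei were sequenced from 2 mice trained in active place avoidance and from 2 untrained control mice, with 1 library per mouse. The task is a test of spatial memory, in which the animal must keep away from a shock sector while the floor beneath it turns. The hippocampus was collected 3 days after the retention test, with no recall session in between. All 4 mice, untrained libraries included, carried ArcCreERT2::eYFPflx, in which a tamoxifen-inducible Cre under control of the activity-dependent gene Arc turns on a floxed eYFP reporter. Nuclei were not separated by this label here, so the values cover labelled and unlabelled neurons together, and age and sex were not given in the sources used here.

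Barcodes with at least 600 UMIs (unique molecular identifiers, each standing for 1 captured RNA molecule) were kept, 47110 in all, from between 41903 and 79810 deposited barcodes per library. Trained replicates 1 and 2 held 6019 and 12206 of them, with median depths of 736 and 887 UMIs, and untrained replicates 1 and 2 held 16916 and 11969, with medians of 957.5 and 1079 UMIs. A barcode was assigned to a cell class when UMIs of that class's marker genes exceeded their expected number by at least 2.5 times, and exceeded the next class's ratio by at least 1.5 times. This assigned 14724 barcodes (31.3%), of which 2866 lay close to the limit, with a ratio under 3. The classes are "-like" classes defined by marker genes, and the suffix is dropped below. No member of the pathway was a marker. The 10 classes with at least 30 nuclei in every library were dentate granule, CA1 pyramidal, CA3 pyramidal, interneuron, thalamic excitatory, deep cortical, astrocyte, oligodendrocyte, oligodendrocyte precursor and choroid plexus. Upper cortical nuclei numbered 8 and 21 in trained libraries against 517 and 91 in untrained libraries and were not tested, nor were microglia, endothelial and ependymal nuclei. Between 17 and 65 barcode sequences were shared by each pair of libraries.

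The leading genes of each tested class included its own markers, which follows from the gate and is no check of the class. Choroid plexus nuclei were led by Otx2os1, Htr2c, Col8a1 and Trpm3, but Ttr, the most abundant transcript of that tissue, reached 1747 CPM in them, and Nwd2 stood at 800.1 and 99 CPM in trained against 1172 and 1035 CPM in untrained libraries, so the class is given under its marker name with this reservation. Levels are given as CPM (UMIs of a gene scaled to a common library total) from UMIs summed over the nuclei of a class in a library, scaled between libraries by TMM within a class. They are compared across classes and libraries and not between genes. Barcodes under 350 UMIs were summed in each library as a low-UMI profile, against which the levels below are set. It is taken to stand for free RNA, which was not tested, and it may also hold shallow nuclei. The deposited barcodes began at 101 and 174 UMIs in trained against 201 and 251 UMIs in untrained libraries. Median depth of the profile was 209 and 221 against 296 and 297 UMIs, so it does not cover the same range in each library. For 6 of the genes the levels just inside and just outside the UMI minimum were close. Fyn averaged 127 ± 11.9 CPM in barcodes of 600 to under 700 UMIs and 129 ± 13.8 CPM in those of 500 to under 600 (SD, n = 4 libraries), and Reln 54.3 ± 10.9 and 49.1 ± 1.84 CPM. Vldlr averaged 55.5 CPM inside and 57.3 CPM outside the minimum, Lrp8 42.7 and 44.4 CPM, Crk 82.3 and 79.1 CPM, and Crkl 29.5 and 29.7 CPM. Dab1 averaged 1488 ± 495 CPM just inside the minimum and 1216 ± 544 CPM just outside it.

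Reelin is a large glycoprotein secreted into the extracellular matrix. It binds the lipoprotein receptors Vldlr and Lrp8 (also called ApoER2), whose cytoplasmic tails hold the adaptor Dab1. Fyn, a kinase of the Src family, phosphorylates Dab1 on tyrosines, and the adaptors Crk and Crkl bind the phosphorylated form and pass the signal on to regulators of small GTPases and of adhesion. In development the pathway guides neuronal migration and layering. In the adult hippocampus reelin comes mainly from interneurons, and the pathway modulates NMDA receptors and synaptic plasticity.

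**Figure D1:**
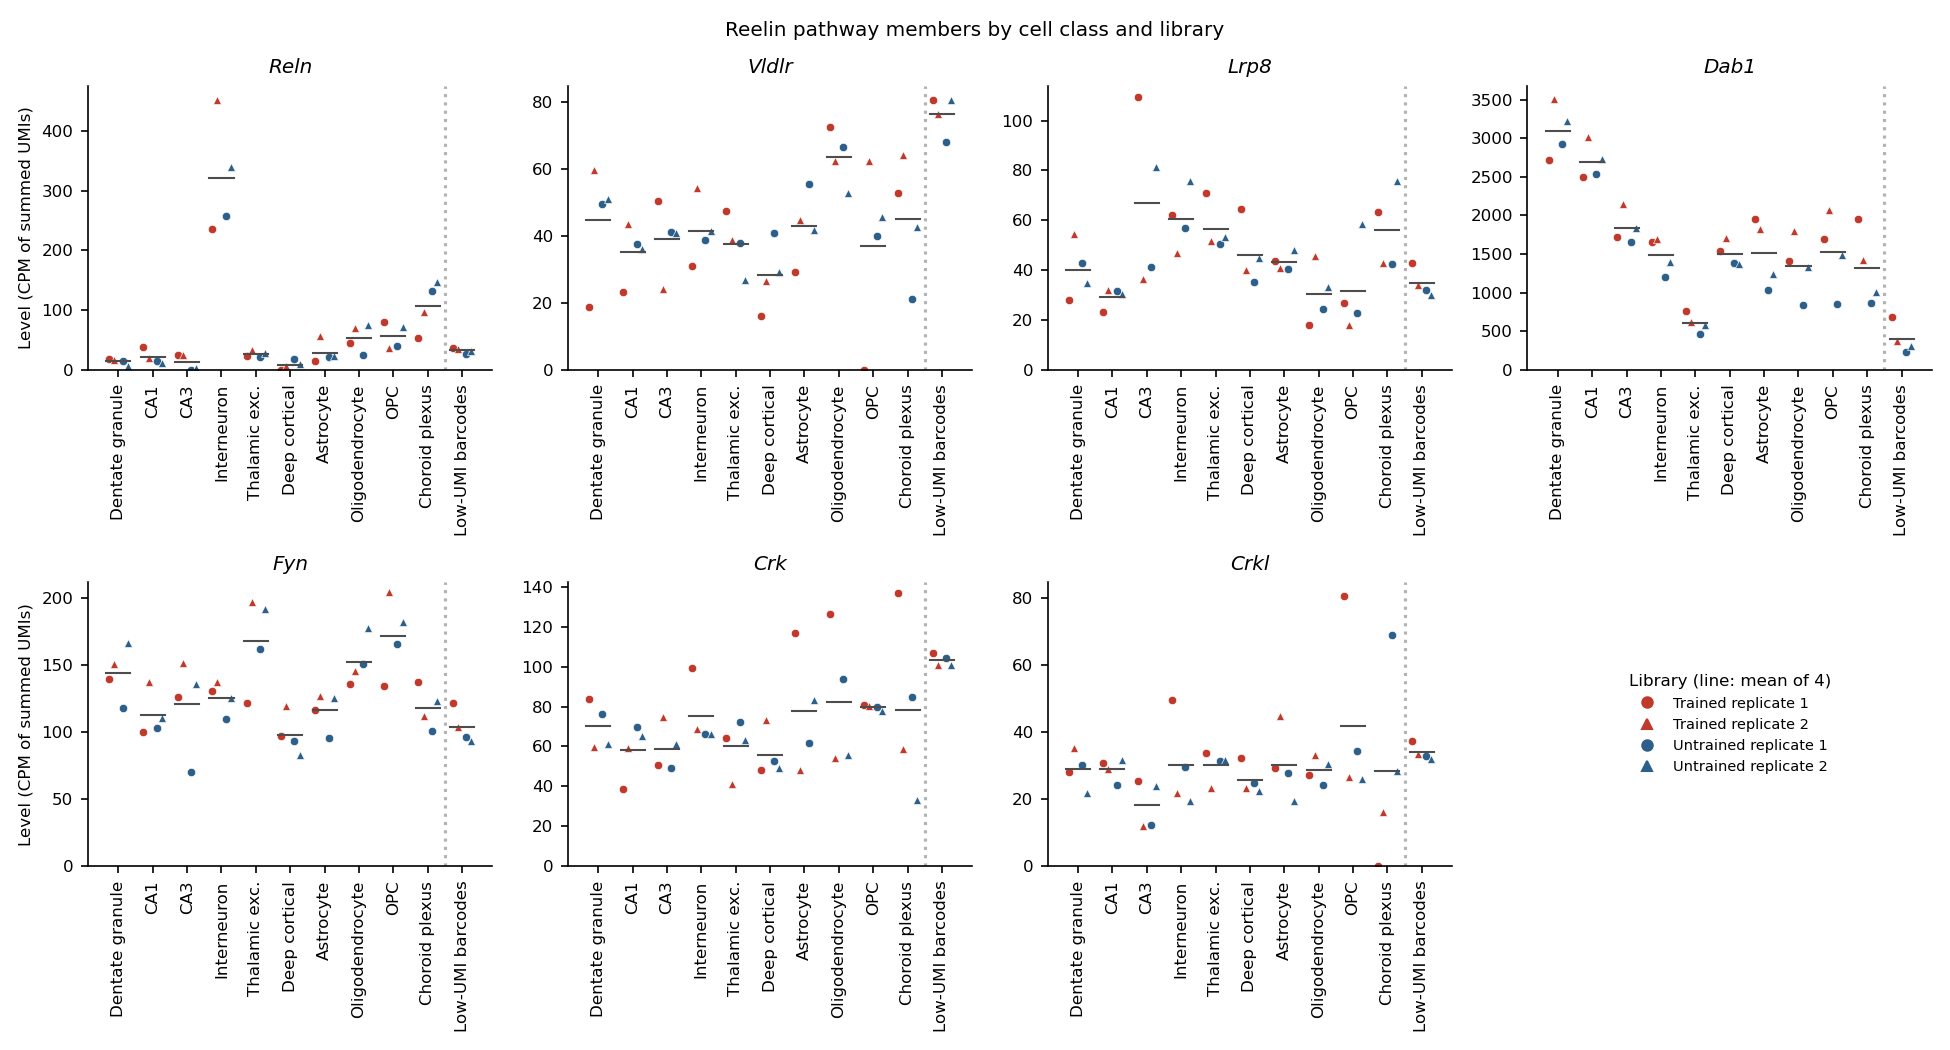
Level of each member in the 10 tested classes and in barcodes under 350 UMIs (CPM of summed UMIs, vertical axis with its own scale for each gene). Each point is 1 library, trained libraries stand left of untrained libraries, and the bar is the mean of the 4 libraries. Reln stands out in interneurons (322 CPM) and Dab1 in dentate granule (3096 CPM) and CA1 nuclei (2697 CPM). For the other 5 genes the highest class mean is between 1.48 (Crk) and 2.30 (Lrp8) times the lowest.

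Reln, the ligand, was concentrated in interneurons. There it had 236 and 453 CPM in trained libraries against 257 and 339.9 CPM in untrained libraries, a mean of 322 ± 98.7 CPM (SD, n = 4 libraries), which was 9.96 times the mean of the low-UMI barcodes. The lowest interneuron library lay above every library of every other tested class. In the fit over all classes with library as a block, Reln was 4.55 log2 units higher in interneurons than in the mean of the 3 excitatory classes dentate granule, CA1 and CA3 (SE 0.16, adjusted p = 2.93e-48, edgeR quasi-likelihood test with Benjamini-Hochberg adjustment over 9229 genes). In that contrast 24% of all genes passed the threshold of an adjusted p under 0.05.

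After every nucleus was thinned to 600 UMIs, 14.9% of interneurons held a Reln UMI, against 0.962% of CA1 and 0.587% of dentate granule nuclei. Unthinned, the shares were 20.6%, 1.49% and 1.03%, at median depths of 992.5, 1086 and 927.5 UMIs. CA1 and dentate granule levels of Reln, 20.7 ± 12.3 and 13.6 ± 5.53 CPM, averaged below the 32.3 ± 4.21 CPM of the low-UMI barcodes and could not be told from background. CA3, thalamic, deep cortical and astrocyte nuclei also averaged below that level. Oligodendrocytes and their precursors averaged 53.7 ± 23.7 and 56.9 ± 22.5 CPM, ranges that overlapped each other.

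Choroid plexus nuclei came next to interneurons, with 52.7 and 96 CPM of Reln in trained libraries against 133 and 146 CPM in untrained libraries, and 6.20% of them held a Reln UMI after thinning. All 4 libraries were above the low-UMI level, and the range did not overlap that of interneurons. Ependymal nuclei, too few to test, held 1 and 0 Reln UMIs in trained against 2 and 10 in untrained libraries.

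Reln-expressing interneurons are known to include neurogliaform cells, which carry Ndnf and Lamp5, and a part of the Sst cells. Interneurons gated by markers of the medial and of the caudal ganglionic eminence (MGE and CGE), the embryonic sources of Sst and Pvalb cells and of Vip cells, had like levels, 309 ± 87.9 and 310.0 ± 113 CPM. Thinned shares with a Reln UMI were 14.5% and 14.1%. Within the gate, the 82 nuclei with an Ndnf UMI held 1082 CPM of Reln, against 296 CPM in the 2058 nuclei without one. In the 3 libraries with more than 2 such nuclei, the level with Ndnf was 1204 CPM in trained replicate 2, 883 CPM in untrained replicate 1 and 1173 CPM in untrained replicate 2.

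Nuclei with a UMI of Lamp5 or of Kit also held more Reln, 612 and 655 CPM, than those without, 314 and 313 CPM. With Sst the level was 324 CPM, close to the 327 CPM without it, and with Pvalb or Vip it was 153 and 159 CPM, below the 337 and 332 CPM without. Npy, also carried by neurogliaform cells, went the other way, with 243 CPM in nuclei with it and 334 CPM in those without. The general interneuron genes Gad2 and Gad1 gave 489 and 410 CPM with and 275 and 297 CPM without, so a higher level was not limited to nuclei with neurogliaform genes. These genes were chosen after their values were seen, and most nuclei that express such a gene hold no UMI of it at this depth. All but Npy are also markers of the interneuron gate, so nuclei with and without a UMI entered the gate partly through different markers. The comparison is a description over summed nuclei. No barcode passed the gate for Cajal-Retzius cells, the main source of reelin in development. The 11 barcodes with UMIs of at least 2 of their markers held 1 Reln UMI together. That gate needed at least 3 marker UMIs, which such nuclei may not hold at this depth, so it cannot show that these cells were absent. Of all 2772 Reln UMIs in the barcodes kept, 28.5% lay in interneurons and 57.3% in unassigned barcodes. The 41 barcodes with at least 5 Reln UMIs included 21 interneurons and 14 unassigned barcodes, and the rest lay in other classes.

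**Figure D2:**
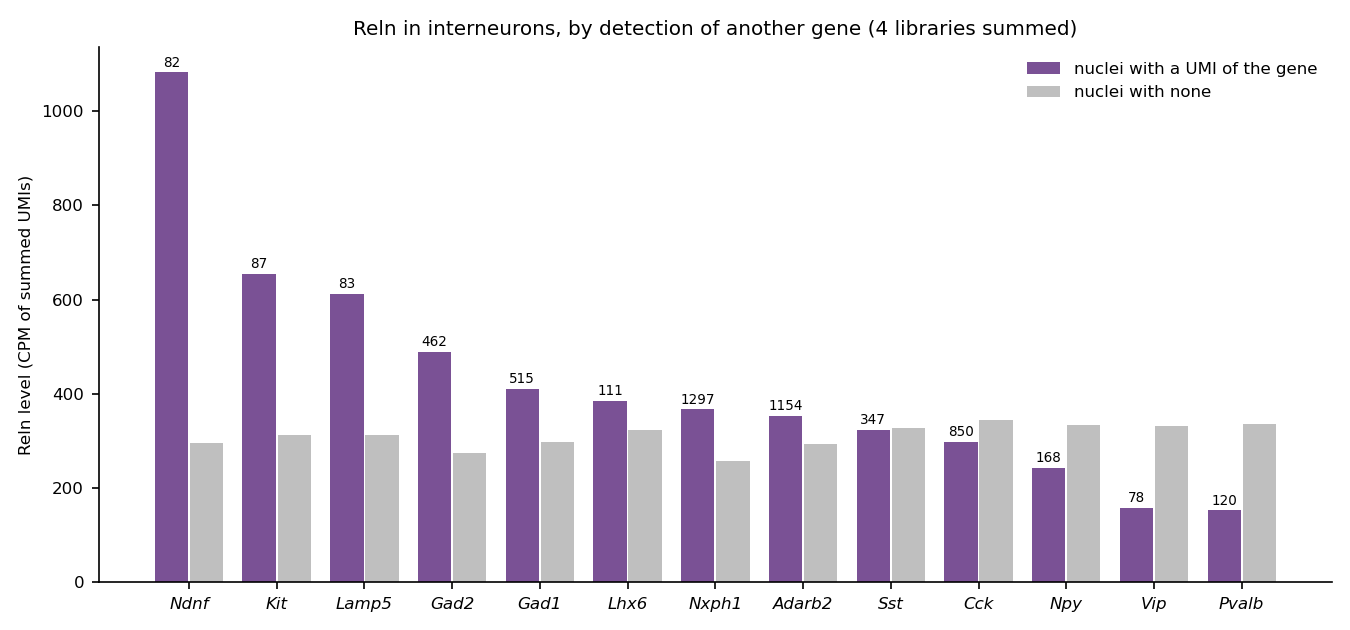
Reln level (CPM of UMIs summed over the 4 libraries, vertical axis) in interneurons with at least 1 UMI of the gene named on the horizontal axis and in those with none. The number above a bar is the count of nuclei with that gene. All genes shown but Npy are markers of the interneuron gate. Reln is 1082 CPM with Ndnf and 153 CPM with Pvalb, against 296 and 337 CPM in the nuclei without them.

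Vldlr, the receptor that binds reelin but is also widely expressed outside neurons, did not pass the threshold in any of the 5 contrasts between classes. Its means over the 10 classes lay between 28.1 CPM in deep cortical nuclei and 63.4 ± 8.23 CPM in oligodendrocytes. In oligodendrocytes it stood at 72.3 and 62.3 CPM in trained against 66.4 and 52.8 CPM in untrained libraries. In none of the 10 tested classes did any library exceed the low-UMI barcodes of its own library, which held 80.6 and 76.2 CPM in trained and 67.8 and 80.5 CPM in untrained libraries. Ependymal nuclei, given below, were above it in 3 of 4 libraries.

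Lrp8, the other reelin receptor, differed between classes. CA3 nuclei had 109 and 36.3 CPM in trained against 41.1 and 81.4 CPM in untrained libraries, and CA1 nuclei had 23.1 and 31.9 CPM in trained against 31.4 and 30.4 CPM in untrained libraries. Each CA3 library was above each CA1 library, and the log2 difference was 0.91 (SE 0.25, adjusted p = 0.00685, edgeR quasi-likelihood test), in a contrast where 12% of genes passed. The call rested on single libraries: Lrp8 stood at 0.69 (adjusted p = 0.116) without trained replicate 1, at 0.63 (adjusted p = 0.28) without untrained replicate 2 and at 0.48 (adjusted p = 0.583) with the stricter marker gate. Lrp8 in CA3 rested on 13, 18, 10 and 24 UMIs in trained replicates 1 and 2 and untrained replicates 1 and 2.

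Between CA3 and dentate granule nuclei the Lrp8 log2 difference was 0.55 (SE 0.25, adjusted p = 0.126), short of the threshold. Interneurons had 62 and 47 CPM in trained against 56.9 and 75.7 CPM in untrained libraries, 0.47 log2 units above the 3 excitatory classes (SE 0.16, adjusted p = 0.0245). That call was lost with DESeq2 (adjusted p = 0.0659), with no count filter (adjusted p = 0.0515), without untrained replicate 1 (adjusted p = 0.117) and without untrained replicate 2 (adjusted p = 0.318). In CA1 nuclei the mean of 29.2 ± 4.11 CPM did not exceed the 34.7 ± 5.69 CPM of the low-UMI barcodes.

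Ependymal nuclei, which line the ventricles, had the highest counts of both receptors relative to their depth, although only 34 and 26 of them came from trained and 19 and 78 from untrained libraries. Lrp8 stood at 188 and 213 CPM in trained against 171 and 107 CPM in untrained libraries, on 4 to 10 UMIs each. Vldlr stood at 157 and 35.5 CPM in trained against 256 and 171 CPM in untrained libraries, on 1 to 16 UMIs each. After thinning, 9.55% of ependymal nuclei held an Lrp8 UMI and 10.2% a Vldlr UMI, and in the 10 tested classes no more than 4.66% and 4.03% did.

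**Figure D3:**
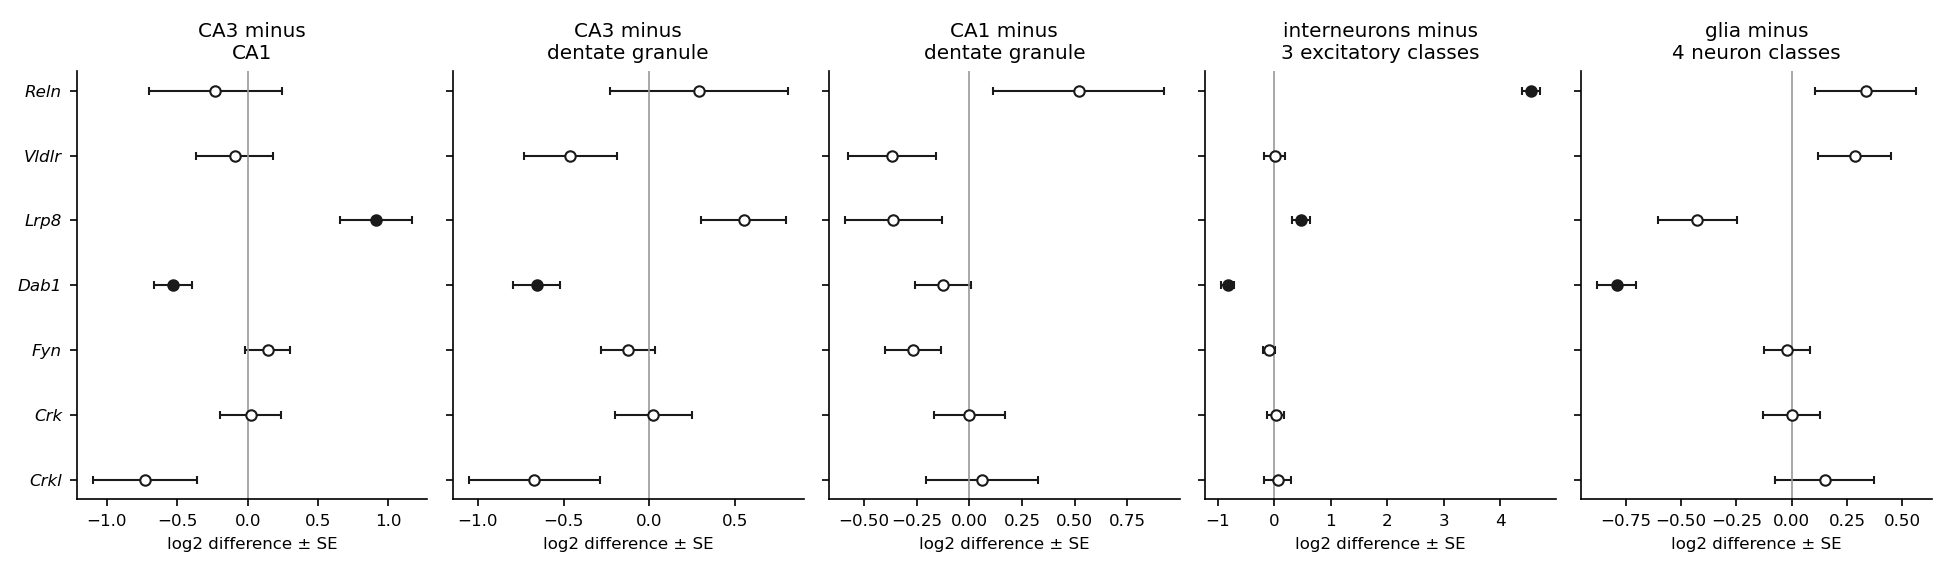
Differences between cell classes for the 7 members (log2 difference with its standard error, horizontal axis, a separate scale for each contrast). Filled points passed an adjusted p of 0.05 over 9229 genes. Dab1 is lower in CA3, interneuron and glial nuclei (log2 differences between -0.53 and -0.83), Reln is higher in interneurons (4.55) and Lrp8 is higher in CA3 nuclei and interneurons.

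Dab1, the intracellular adaptor, was highest in dentate granule and CA1 nuclei. Dentate granule nuclei had 2719 and 3515 CPM in trained against 2929.8 and 3222 CPM in untrained libraries, and CA1 nuclei had 2501 and 3013 CPM in trained against 2537 and 2737 CPM in untrained libraries. In both classes the groups overlapped, and dentate granule nuclei were above CA1 nuclei in 4 of 4 libraries although the difference did not pass the threshold (log2 difference CA1 minus dentate granule -0.13, SE 0.13, adjusted p = 0.626), in a contrast where 19% of genes did.

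CA3 nuclei had less Dab1 than either, with 1724 and 2154 CPM in trained against 1656 and 1834 CPM in untrained libraries. Dab1 was lower in CA3 than in CA1 by a log2 difference of -0.53 (SE 0.14, adjusted p = 0.00270) and lower than in dentate granule nuclei by -0.66 (SE 0.14, adjusted p = 8.65e-05). In the second of these contrasts 17.4% of genes passed. No other member differed in both. After thinning to 600 UMIs (median depths before it 927.5 in dentate granule, 1086 in CA1 and 1213 in CA3 nuclei) a Dab1 UMI was found in 82.7% of dentate granule, 78.3% of CA1 and 56.9% of CA3 nuclei, and unthinned in 91.6%, 91.0% and 73.3%.

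Interneurons had 1650.3 and 1695 CPM of Dab1 in trained against 1200.2 and 1401 CPM in untrained libraries, below the 3 excitatory classes by a log2 difference of -0.83 (SE 0.12, adjusted p = 2.25e-09). Within them, CGE interneurons averaged 1919 ± 225 CPM and MGE interneurons 1203 ± 221 CPM, and the CGE value was the higher in 4 of 4 libraries. Reln did not follow this division, as given above. Thalamic excitatory nuclei had the lowest level of the tested classes, 762 and 616 CPM in trained against 468 and 581 CPM in untrained libraries, with a range that did not overlap that of any other tested class. Their mean was 1.53 times that of the low-UMI barcodes, and 24.9% of them held a Dab1 UMI after thinning. Deep cortical nuclei had 1533 and 1706 CPM in trained against 1381 and 1374 CPM in untrained libraries.

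In the mean of astrocytes and oligodendrocytes Dab1 was lower than in the mean of dentate granule, CA1, CA3 and interneuron nuclei (log2 difference -0.79, SE 0.09, adjusted p = 9.84e-13), in a contrast where 33.1% of genes passed. Thalamic excitatory nuclei, outside this contrast, were lower than either glial class. Both glial classes still stood more than 3 times above the low-UMI barcodes, 1512 ± 447 and 1344 ± 396 CPM against 397 ± 197 CPM. Markers of other classes were present in them as well: the summed dentate granule markers reached 1476 CPM in astrocytes and 1604 CPM in oligodendrocytes, against 6643 CPM in dentate granule nuclei. Their part in the glial Dab1 level was not tested. Oligodendrocyte precursors, astrocytes, deep cortical nuclei and interneurons were neighbours in the order of Dab1 levels and overlapped each other's ranges.

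Fyn, the kinase that phosphorylates Dab1, differed little. Class means lay between 98.1 ± 15.5 CPM in deep cortical nuclei and 172 ± 29.7 CPM in oligodendrocyte precursors, and neighbouring classes overlapped throughout the order. Oligodendrocyte precursors had 134 and 205 CPM in trained against 165 and 182 CPM in untrained libraries, and oligodendrocytes, in which Fyn is known to promote myelination, had 136 and 145 CPM in trained against 151 and 178 CPM in untrained libraries. None of the 5 contrasts passed the threshold, and for glia against neurons the log2 difference was -0.02 (SE 0.10, adjusted p = 0.897). The low-UMI barcodes held 104 ± 12.9 CPM, so that the mean of a class was at most 1.65 times that level.

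Crk and Crkl are the adaptors downstream of Dab1. Class means of Crk were all below the low-UMI barcodes, at 0.54 to 0.80 times their level, and those of Crkl were at 0.54 to 1.23 times. Crk averaged between 55.8 ± 11.6 CPM in deep cortical nuclei and 82.4 ± 34.7 CPM in oligodendrocytes, against 103 ± 2.8 CPM in low-UMI barcodes. Crkl averaged between 18.3 ± 7.11 CPM in CA3 nuclei and 41.9 ± 26.0 CPM in oligodendrocyte precursors, against 33.9 ± 2.3 CPM in low-UMI barcodes. Neither passed the threshold in a contrast between classes, the nearest being the lower Crkl in CA3 than in CA1 nuclei (log2 difference -0.73, SE 0.37, adjusted p = 0.24), which rested on 3, 6, 3 and 7 CA3 UMIs.

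Across the 40 sums of class and library, the genes whose levels followed Dab1 most closely were Iqgap2 (Pearson r = 0.91), Gm44151 (0.90), the AMPA receptor subunit gene Gria1 (0.89), the neurotrophin receptor gene Ntrk3 (0.88) and Wipf3 (0.88). For Reln they were Maf (0.86), a transcription factor gene of MGE interneurons, Erbb4 (0.85), the neuregulin receptor of interneurons, 4930555F03Rik (0.84), C130073E24Rik (0.82) and Gm45321 (0.78). The nearest genes to Vldlr were Srsf1 (0.80), Fam133b (0.76) and Vdac2 (0.74). For Lrp8, Fyn, Crk and Crkl no gene exceeded 0.64, the highest being Ogt (0.60), Grb14 (0.58), BC052040 (0.64) and Sugt1 (0.58), ahead of Uri1 and Erc1, Rab40c and Fign, Mrpl23 and Camsap2, and Sec24a and Eprs. These coefficients were computed on log2(CPM + 10) over 4053 genes of at least 50 CPM, and the sums share 4 libraries, so they are descriptions. Members did not follow each other: Reln with Dab1 gave -0.21, Reln with Lrp8 0.15 and Dab1 with Fyn -0.20, and the value farthest from 0 was that of Vldlr with Crkl, -0.43.

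Training was then compared within each class, trained minus untrained, in a fit across all genes of the class. In CA3 nuclei, where the gene set was chosen, Dab1 had a log2 change of 0.17 (SE 0.19) with overlapping groups, given above. At an equal depth of 600 UMIs the change was 0.38, and 63.6% and 60.3% of nuclei in trained libraries held a Dab1 UMI, against 50.3% and 50.3% in untrained libraries. Median depth of CA3 nuclei was 756 and 1195 UMIs in trained against 1381 and 1716 UMIs in untrained libraries. Without trained replicate 2 the change was -0.03, and over all 4 single omissions it lay between -0.03 and 0.30.

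In dentate granule and CA1 nuclei Dab1 changed by 0.03 (SE 0.15) and 0.07 (SE 0.15), with overlapping groups. Larger values came from glial and other nuclei. Astrocytes had 1955 and 1825 CPM in trained against 1030.5 and 1239 CPM in untrained libraries (0.72, SE 0.18), and choroid plexus nuclei had 1959.8 and 1423 CPM in trained against 864 and 1011 CPM in untrained libraries (0.81, SE 0.22). In oligodendrocytes the levels were 1410.2 and 1797 CPM in trained against 833 and 1336 CPM in untrained libraries (0.56, SE 0.27), and in their precursors 1691 and 2065 CPM against 850.2 and 1481 CPM (0.69, SE 0.26). For interneurons, thalamic excitatory and deep cortical nuclei the changes were 0.36 (SE 0.19), 0.39 (SE 0.20) and 0.24 (SE 0.19).

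In these 7 classes, though not in dentate granule, CA1 or CA3 nuclei, both trained libraries lay above both untrained libraries for Dab1. The share of all genes with that pattern was 23% in astrocytes, 23.1% in choroid plexus, 18.3% in oligodendrocyte, 18.7% in oligodendrocyte precursor, 17.7% in interneuron, 15.7% in thalamic excitatory and 18.9% in deep cortical nuclei. It was 17.3% in dentate granule, 16.4% in CA1 and 14.7% in CA3 nuclei. Since Dab1 chose the set, nothing is read from its count.

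Dab1 was also higher in trained libraries outside the classes. The low-UMI barcodes, whose depth differed between libraries, held 679.7 and 369.9 CPM of it in trained against 228 and 311 CPM in untrained libraries. Barcodes of 600 to under 700 UMIs, whatever their class, held 1733 and 2061 CPM in trained against 1005 and 1151 CPM in untrained libraries, and those of 500 to under 600 UMIs held 1679 and 1695 CPM in trained against 718 and 773 CPM in untrained libraries. In astrocytes the summed CA1 markers were 1688 and 1342 CPM in trained against 794 and 754 CPM in untrained libraries. Most of that sum was the single gene Galntl6, with 1342 and 929 CPM in trained against 421 and 432 CPM in untrained libraries. Galntl6 was not limited to CA1 nuclei (6952 CPM) and stood at 2397 CPM in interneurons. The astrocyte markers in astrocytes were 7750 and 9195 CPM against 10378 and 11142 CPM. Among the other neuronal sets in astrocytes, CA3 markers were higher, 880 and 667 CPM in trained against 550 and 471 CPM in untrained libraries. MGE interneuron markers, 317 and 508 CPM against 677 and 585 CPM, were lower. Upper cortical markers, 433 and 486 CPM against 729 and 702 CPM, were lower as well. Dentate granule markers, 1559 and 1476 CPM against 1296 and 1723 CPM, overlapped, as did the CGE, general interneuron, thalamic and deep cortical sets. For choroid plexus nuclei the summed dentate granule markers were 1559 and 1662 CPM in trained against 835 and 1294 CPM in untrained libraries, and the CA1 markers, 1288 and 1131 CPM against 1112 and 1231 CPM, overlapped. The part of free RNA and of neuronal RNA in the higher Dab1 of these classes was not tested, nor was that of the mix of nuclei in the choroid plexus gate.

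**Figure D4:**
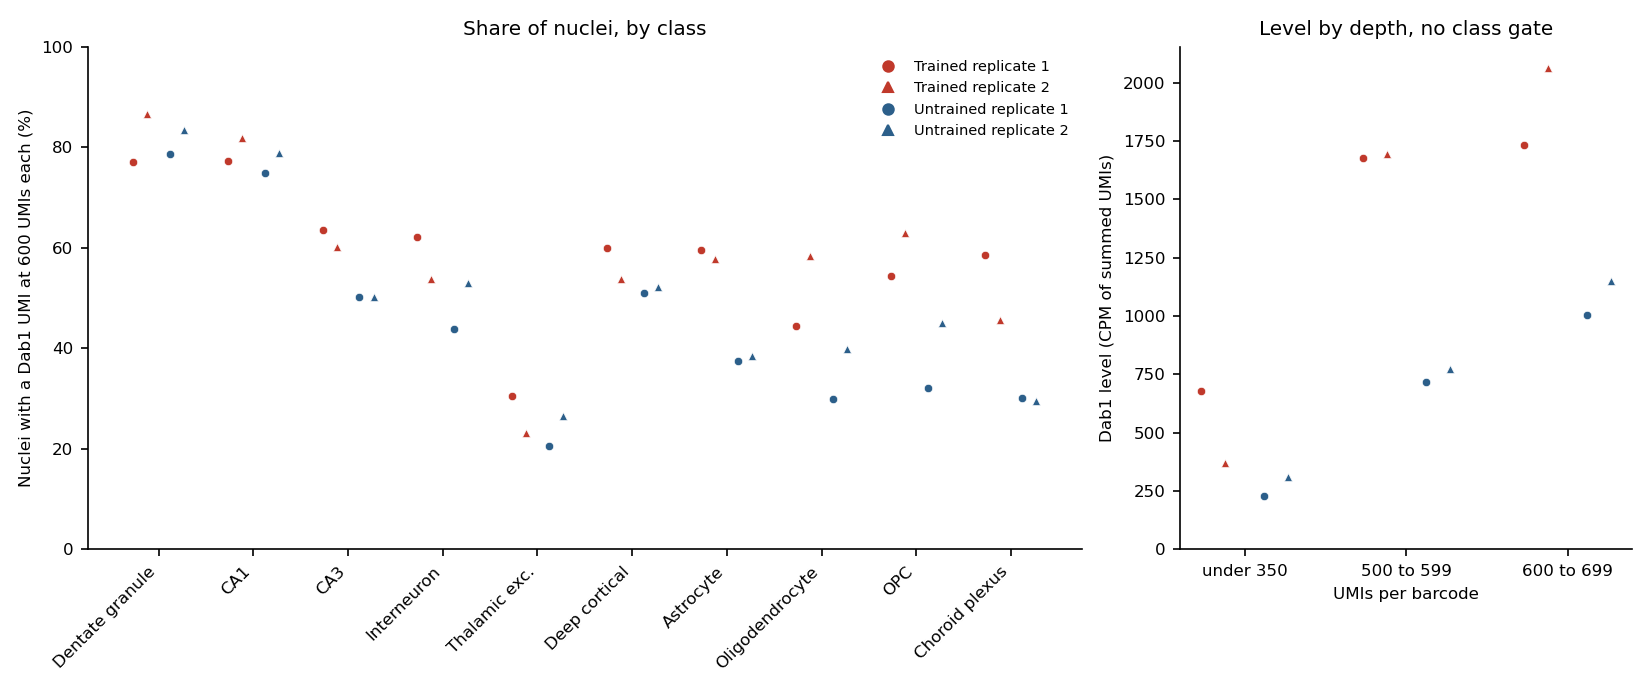
Left, share of nuclei with at least 1 Dab1 UMI after each nucleus was thinned to 600 UMIs (%, vertical axis) by class. Right, Dab1 level (CPM) in barcodes of 3 ranges of depth without a class gate. Each point is 1 library, with trained libraries left of untrained libraries. In astrocytes the shares are 59.6% and 57.8% in trained against 37.6% and 38.6% in untrained libraries, and dentate granule shares overlap between the groups.

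Of the other 6 members none passed the threshold of an adjusted p under 0.05 with training in any class in which it passed the count filter (edgeR quasi-likelihood test). Fyn and Crk were tested in 10 classes, Vldlr and Lrp8 in 8, Reln in 5 and Crkl in 4. Few genes did at all: 0.0107% of 9359 genes in CA1, 0.0117% of 8557 in dentate granule, 0.0196% of 5104 in CA3, 0.0109% of 9174 in interneuron and 0.0132% of 7572 in thalamic excitatory nuclei, which was the single gene Ttr in each, higher in trained libraries. In deep cortical nuclei it was 0.0438% of 6850 genes, namely Ttr, Shisa6 and Tafa1. The higher Ttr was not particular to these classes: both trained libraries were above both untrained libraries in every class. Unassigned barcodes held 1032 and 1017 CPM of Ttr in trained against 330 and 428 CPM in untrained libraries. The source of this RNA was not tested. In astrocytes 1.52% of 6233 genes passed, 65 of them higher and 30 lower. That count dropped to 0 when trained replicate 2 was left out, and was 15 with trained replicate 1 omitted, 10 with untrained replicate 1 omitted and 144 with untrained replicate 2 omitted. It was 2 with the stricter gate and 168 with the replicate number as a block. In oligodendrocytes, their precursors and choroid plexus nuclei 0% of 6217, 3284 and 4429 genes passed with edgeR, where 387, 145 and 453 had an unadjusted p under 0.05 and DESeq2 called 0, 0 and 13.

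Reln in interneurons had a log2 change of 0.30 (SE 0.24, adjusted p = 0.979), and its groups overlapped. Without trained replicate 2, the library with 453 CPM, the change was -0.35. In choroid plexus nuclei both trained libraries were below both untrained libraries, with a log2 change of -0.82 (SE 0.36, unadjusted p = 0.0409, adjusted p = 0.462), on 5 and 18 Reln UMIs in trained against 25 and 31 in untrained libraries. Of all genes in these nuclei, 19.2% had that pattern. Among them were Nwd2, given above, and Kctd8, with 447 and 57.3 CPM in trained against 716 and 652 CPM in untrained libraries. Whether the mix of nuclei in this gate differed between libraries, and its part in the Reln change, was not tested. CA3 nuclei held 3 and 12 Reln UMIs in trained against 0 and 1 in untrained libraries, too few for the filter on low counts, and 24.7 CPM on average in trained libraries is below the low-UMI level.

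For Vldlr the log2 change lay between -0.54 (SE 0.52) in deep cortical and 0.39 (SE 0.37) in thalamic excitatory nuclei. Lrp8 changes lay between -0.36 (SE 0.31) in interneurons and 0.36 (SE 0.34) in dentate granule nuclei, and its groups overlapped in all 10 classes. The kinds of interneuron were not tested apart. In MGE interneurons Lrp8 had 36.3 and 39.5 CPM in trained against 65 and 88.8 CPM in untrained libraries, on 3 and 12 against 37 and 37 UMIs. CGE interneurons had 103 and 52.4 CPM in trained against 44.8 and 54 CPM in untrained libraries. The share of all genes wholly below in MGE nuclei was not counted, and in interneurons as a whole it was 17.7%. Nothing is read from this split.

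Fyn changed by between -0.23 (SE 0.34) in oligodendrocytes and 0.45 (SE 0.32) in CA3 nuclei, where it had 126 and 151 CPM in trained against 69.9 and 136 CPM in untrained libraries. Crk changes lay between -0.39 (SE 0.32) in thalamic excitatory and 0.56 (SE 0.53) in choroid plexus nuclei, and Crkl, which passed the count filter in 4 classes, changed by between -0.18 (SE 0.40) and 0.40 (SE 0.41). Counts of classes in which trained libraries lay wholly above or wholly below untrained libraries were 3 and 2 for Reln, 2 and 1 for Vldlr, 0 and 0 for Lrp8, 2 and 1 for Fyn, 2 and 1 for Crk and 1 and 1 for Crkl, of 10 classes each. Over all genes the share wholly below was 17.2% in CA1, 18.6% in dentate granule, 15.2% in CA3, 17.7% in interneuron, 15.8% in thalamic excitatory, 20.4% in deep cortical, 17.8% in oligodendrocyte, 16.3% in oligodendrocyte precursor, 23.2% in astrocyte and 19.2% in choroid plexus nuclei, and the shares wholly above are given with Dab1. These shares cover only genes that passed the count filter, whereas the members' counts include classes in which a member did not pass it. The counts are therefore not set against the shares, and nothing is read from them.

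**Figure D5:**
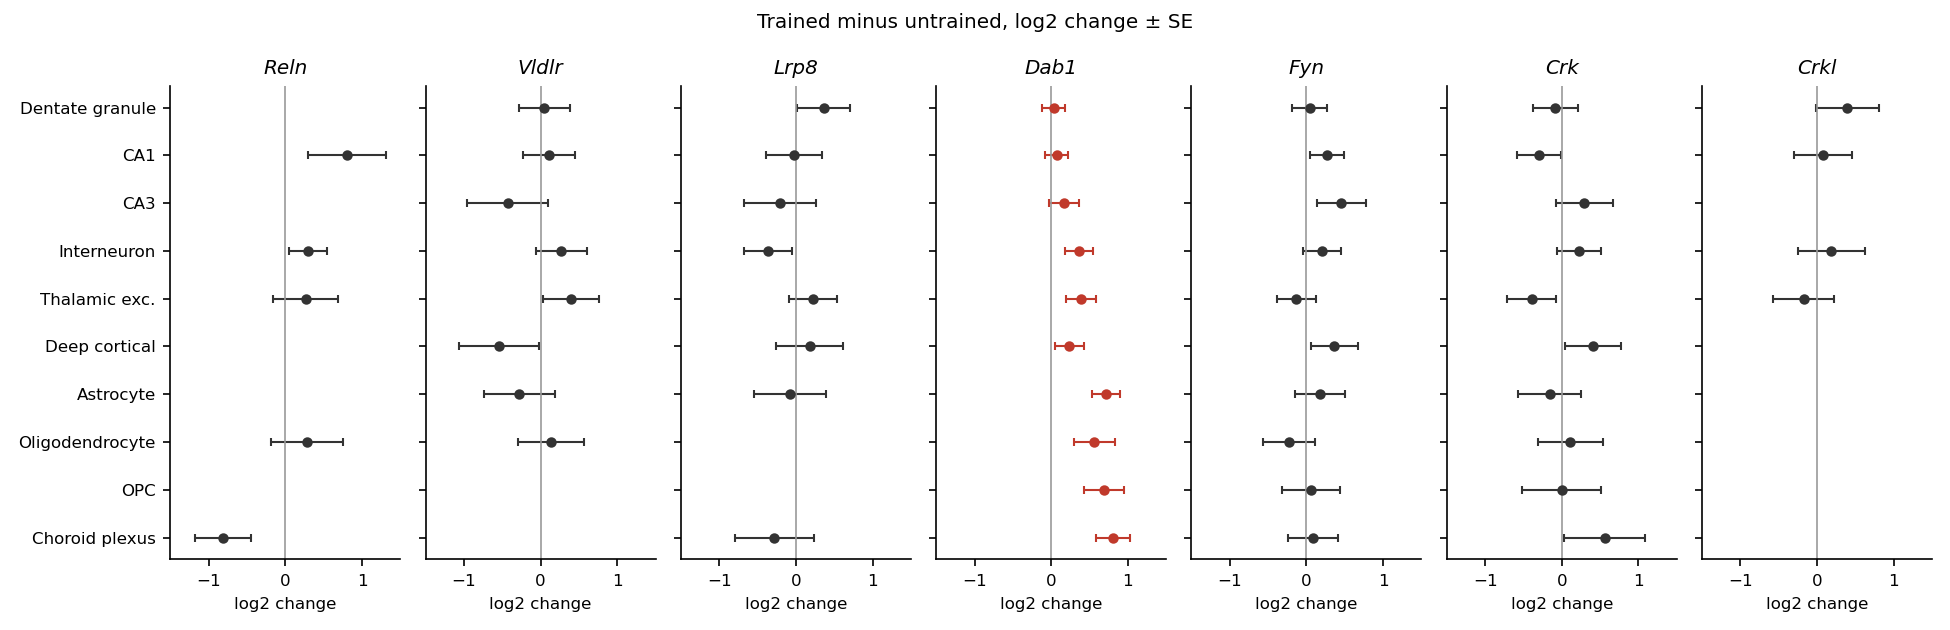
Log2 change with training (trained minus untrained, horizontal axis, with its standard error) of each member in each class in which it passed the count filter. The 6 members in black did not pass an adjusted p of 0.05 in any class shown. Dab1, in red, chose the gene set and was not tested, and its values lie between 0.03 in dentate granule and 0.81 in choroid plexus nuclei.

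Whether training acted differently in CA3 was asked directly, as the training effect in CA3 minus the mean effect in CA1, dentate granule and interneuron nuclei. For Dab1 this difference was 0.02 (SE 0.18). For Fyn it was 0.30 (SE 0.29), for Lrp8 -0.28 (SE 0.42) and for Reln 2.88 (SE 1.12, unadjusted p = 0.0113, adjusted p = 1), the last on the few CA3 UMIs given above. In this test 0% of 9229 genes passed with edgeR, 402 had an unadjusted p under 0.05, and no other tool was run. A joint test of whether the training effect differed among all 10 classes, added after the data were seen, called 0.737% of genes, none of the 6 members other than Dab1 among them (Reln adjusted p = 0.264).

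Other genes of the pathway, 69 in number, were taken by branch from a list made for this description: other ligands, receptor partners, kinases and Dab1 turnover, the Crk branch, the PI3-kinase branch, the cytoskeleton and synaptic partners. Between 29 and 61 of them passed the count filter in a class. With training, 1 rose and 0 fell in astrocytes, and 0 passed in the other 9 classes. In astrocytes this was 1.92% of the 52 list genes tested, near the 1.52% of all genes. The gene that rose in astrocytes was Grin2a, an NMDA receptor subunit gene, with 1721 and 1825 CPM in trained against 947 and 1127 CPM in untrained libraries (log2 change 0.77, SE 0.19, adjusted p = 0.0237). Neuronal markers in the same nuclei, some sets higher and some lower in trained libraries, are given above, and their part in this change was not tested. No gene passed in astrocytes without trained replicate 2, Grin2a included. Apoe, a ligand of Lrp8 and Vldlr, had 598 and 1054 CPM in trained against 1337 and 1557 CPM in untrained astrocytes (-0.73, SE 0.21, adjusted p = 0.0572), and the adaptor gene Nck2 had 87.5 and 101 CPM against 40.5 and 38.5 CPM (1.27, SE 0.39, adjusted p = 0.0754).

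The median log2 change of the list was between -0.12 in astrocytes and 0.08 in choroid plexus nuclei, and that of all genes tested was between -0.02 and 0.00 in every class. In CA3 nuclei the 3 list genes with the smallest p were the receptor chaperone gene Lrpap1 (1.11, SE 0.52), Rap1b (0.86, SE 0.51), a small GTPase activated through Crk, and App (0.38, SE 0.22), each with an adjusted p of 1. CA1 nuclei gave Cdk5r1 (-0.66, SE 0.29), Apoe (0.32, SE 0.17) and Plat (0.95, SE 0.52), and dentate granule nuclei gave Rapgef1 (0.58, SE 0.27), the exchange factor recruited by Crk, Nck1 (0.62, SE 0.31) and Gsk3a (-0.83, SE 0.44). In interneurons they were Rnf7 (-1.15, SE 0.41), part of the ligase that degrades Dab1, Serpine2 (0.81, SE 0.32) and Lrpap1 (-0.74, SE 0.30). Adjusted p-values of these genes in CA1, dentate granule and interneuron nuclei were 0.819 or higher.

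Among the remaining classes, thalamic excitatory nuclei gave Dlg4 (-0.63, SE 0.25), Itga3 (-1.10, SE 0.50) and Adamts3 (0.70, SE 0.35), and deep cortical nuclei gave Rac1 (-1.03, SE 0.39), Cdk5 (0.85, SE 0.40) and Nck1 (0.84, SE 0.42). Oligodendrocytes gave Grin2a (0.50, SE 0.26), Rnf7 (-0.85, SE 0.46) and Cul5 (0.54, SE 0.38), and their precursors Cdh2 (0.60, SE 0.33), Dock1 (-0.84, SE 0.49) and Grin2a (0.33, SE 0.24). In choroid plexus nuclei the 3 were the NMDA receptor genes Grin2a (0.60, SE 0.20), Grin2b (0.60, SE 0.20) and Grin1 (0.52, SE 0.26). None of these passed the threshold.

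Between cell classes the other pathway genes differed more often. Of the 62 that passed the filter, 15 were higher and 9 lower in astrocytes and oligodendrocytes than in neurons, 38.7% against 33.1% of all genes, with a median log2 difference of 0.14 against 0.04 over all genes. Those higher included Dock1 of the Crk branch (2.66, SE 0.14, adjusted p = 4.03e-32) and the alternative ligands Selenop (1.81, SE 0.23, adjusted p = 9.15e-11), Apoe (0.81, SE 0.08, adjusted p = 1.51e-14) and Clu (0.80, SE 0.11, adjusted p = 5.03e-10). Those lower included Grin2a (-0.86, SE 0.09, adjusted p = 1.99e-14).

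Interneurons had 7 of the 62 higher and 14 lower than the 3 excitatory classes, 33.9% against 24% of all genes, among them Limk1 (1.95, SE 0.29) and the Src family gene Yes1 (1.23, SE 0.26) higher, and Src itself (-0.73, SE 0.18) lower. CA3 nuclei had 5 higher and 4 lower than CA1 nuclei. Dock1 (1.89, SE 0.33), Cdh2 (0.76, SE 0.14) and the ephrin receptor gene Ephb2 (0.93, SE 0.20) were higher, and Mylip (-1.57, SE 0.39), the ligase that degrades Vldlr and Lrp8, and Pik3r1 (-1.37, SE 0.24) were lower. Against dentate granule nuclei, CA3 nuclei had 5 higher and 2 lower, and CA1 nuclei had 6 higher and 4 lower. These shares, 14.5%, 11.3% and 16.1%, are near the 12%, 17.4% and 19% of all genes.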

How the data were processed

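Nuclei of the hippocampus of 2 trained and 2 untrained mice were profiled from polyA RNA with 10x Chromium 3' chemistry, per the labels' protocols. Each deposited matrix holds raw UMI counts of genes by barcodes. Its header, per the file headers, names Cell Ranger 7.0.0, whereas Cell Ranger 8, STAR and GRCm39 appear in the submitters' processing notes. No genome position is used. The members and the gene lists were chosen with earlier results of these data known.

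Barcodes with at least 600 UMIs were assigned to classes from 144 markers in 17 sets, with at least 3 marker UMIs from at least 2 markers. The gate's limits were set after the data were seen. No doublet caller was run; 6001 barcodes with markers of more than 1 class failed the margin and stayed unassigned, so doublets may remain. For each class the UMIs of a library's nuclei were added up, and the library is the replicate. With 2 libraries per group the p-values for training within a class measure the spread between these libraries. edgeR 4.0.16 in R 4.3.3 was used with filterByExpr, TMM and the quasi-likelihood F test, with Benjamini-Hochberg adjustment at 0.05 over all genes of a fit. Class contrasts had library as a block, so their p-values measure how far differences between classes vary among the libraries. Standard errors are the absolute log2 change divided by the square root of F. The fits were tested on simulated counts. Per library, 4799202 and 12319771 UMIs in trained and 18423764 and 14763031 in untrained libraries lay in the barcodes kept. Other steps ran in Python 3.11.15 (pandas 2.3.3, numpy 2.4.6, scipy 1.17.1, matplotlib 3.10.9).

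All 7 members are named. The 5 genes most like Dab1 and Reln and the 3 most like each other member are named by Pearson correlation, and of the other pathway genes the 3 with the smallest p for training in each class. Alternatives were no count filter, DESeq2 1.42.0, edgeR with the size factors of DESeq2, a replicate block, each library left out, a barcode minimum of 1000 UMIs and 500 genes with a mitochondrial share of up to 5%, thinning to 600 UMIs, a stricter gate (ratio 3, margin 2), scaling by library total and a joint test over classes.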

Additional observations from a re-analysis of the deposited data

How the results depend on the processing

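Alternatives were run for 1 result at a time. The counts of genes passing with training varied most. Leaving out 1 library at a time gave 2 to 8 genes in CA1, 3 to 28 in dentate granule, 2 to 4 in CA3, 2 to 11 in interneuron, 2 to 7 in thalamic excitatory, 3 to 66 in deep cortical, 0 to 331 in oligodendrocyte, 0 to 144 in astrocyte and 0 to 50 in choroid plexus nuclei, against 1, 1, 1, 1, 1, 3, 0, 95 and 0 with all libraries. Where a group kept 1 library, that library is assumed to vary like the others. Without the count filter the counts were 4 in dentate granule, 2 in CA3, 3 in interneuron, 15 in deep cortical and 41 in choroid plexus nuclei. DESeq2 gave 11 in deep cortical and 13 in choroid plexus nuclei, and its size factors in edgeR gave 61 in astrocytes. Thinning gave 16 in deep cortical nuclei and 23 in oligodendrocytes, and the stricter gate gave 2 in astrocytes.

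With the replicate number as a block the counts were 3 in dentate granule, 3 in CA3, 4 in interneuron, 35 in deep cortical and 168 in astrocyte nuclei. Deviations of same-numbered libraries correlated between 0.0015 in deep cortical and 0.12 in CA3 nuclei over genes, and with 2 numbers they are not taken to pair the libraries.

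Of the class contrasts, the stricter gate gave 703 genes for CA3 minus CA1 and 985 for CA3 minus dentate granule nuclei, against 1104 and 1606. Leaving out 1 library gave 695 to 1136, 1026 to 1663 and, for glia, 2031 to 3253, against 3052. The CA3 interaction gave 1 gene without the count filter and 0 to 4 with 1 library left out, and the joint test, chosen after seeing the data, gave 13 to 155 against 68. No member's difference reversed past a threshold. The Lrp8 calls named in the report were lost in 7 alternatives, and Lrp8 gained a call in 2, with log2 differences of 1.02 for CA3 minus dentate granule and -0.62 for glia, both without trained replicate 2. The Dab1 and Reln class calls held under every alternative run. The cause of these changes was not tested. With at least 1000 UMIs the class and interaction fits could not be fitted, since only interneuron and thalamic excitatory nuclei kept at least 30 per library, and with the stricter gate deep cortical nuclei and oligodendrocyte precursors were not tested. Vldlr, Lrp8, Crk and Crkl rested on 643, 686, 998 and 414 UMIs over the 10 classes, which limits what could be detected.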
